A study of Homo sapiens with 12 samples.

Results

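Toll-like receptors of B cells and their adaptors were described across 2 lymphoma lines with and without BCL6 knockdown. The set listed 10 genes: the receptors TLR1, TLR6, TLR7, TLR9 and TLR10, the receptor-like CD180, the chaperone UNC93B1, the adaptor MYD88 and the kinases IRAK1 and IRAK4. Every probe set of the array that the platform annotation gives to exactly 1 of these symbols was taken, whatever its values. This gave 15 probe sets of 9 genes, out of 41091 probe sets of 19775 genes with 1 symbol. No probe set was annotated to IRAK4 alone in the table used, so IRAK4 was not analysed here.

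Both lines, OCI-Ly7 and Pfeiffer, are human lines of diffuse large B-cell lymphoma of the germinal centre type. BCL6 is the transcriptional repressor that maintains the germinal centre state, and cells of each line were transiently transfected with siRNA, either BCL6-directed or non-target (the control). RNA was taken 48 h later and hybridised to the Affymetrix U133 Plus 2.0 array, giving 4 groups of 3 arrays: OCI-Ly7 with BCL6 siRNA, OCI-Ly7 control, Pfeiffer with BCL6 siRNA and Pfeiffer control. The titles of the Pfeiffer controls read NTshRNA, while their descriptions and the design text name an siRNA, and no untransfected cells were among these arrays. Whether replicate arrays stem from independent cultures is not stated in the labels, so p-values measure the spread between these arrays, which may be technical.

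Levels are given as log2(signal + 16), and a change is BCL6 siRNA minus control on that scale, which understates the change of dim probe sets. A probe set is called dim in a line when its mean over that line's 6 arrays is below 7.24 (a signal of 135), the median over all these probe sets of the higher of their line means. The 20546 probe sets above that level in at least 1 line were tested with limma, and "called" means a Benjamini-Hochberg adjusted p under 0.05 over all of them. Arrays of 1 group correlated at 0.982 to 0.987. BCL6 itself (203140_at) read 13.13, 13.10 and 13.15 in OCI-Ly7 with BCL6 siRNA, against 13.50, 13.57 and 13.59 in OCI-Ly7 controls, a fall by 0.42 (adjusted p = 0.0103). In Pfeiffer, BCL6 read 13.11, 13.04 and 12.75 with BCL6 siRNA and 13.86, 13.92 and 14.01 in controls, a fall by 0.96 (adjusted p = 8.41e-07). The size differed between the 3 BCL6 probe sets. The changes were -0.49 in OCI-Ly7 and -1.29 in Pfeiffer on 215990_s_at, both called, and -0.17 in OCI-Ly7 (adjusted p = 0.429, not called) and -0.97 in Pfeiffer (called) on 228758_at. The OCI-Ly7 call on 203140_at was lost without a variance trend (adjusted p = 0.0832).

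The labelled cell type was checked against marker lists. Of 8 B cell markers, 7 had a probe set and none was dim in both lines, while all 7 myeloid markers measured were dim in both. Of 8 T cell markers 7 were dim in both lines, the exception being the kinase LCK, which fell by 1.02 after BCL6 siRNA in Pfeiffer (adjusted p = 1.83e-05) and read 0.21 higher without a call in OCI-Ly7 (adjusted p = 0.453). Of 6 plasmacytoid dendritic cell markers 5 had a probe set, and CLEC4C, LILRA4 and IL3RA were dim in both lines. The other 2 were tested. GZMB, a marker of those cells that is not specific to them, was the 1 gene of that list called after BCL6 siRNA, higher in both lines. Summed over the 5 markers, the signal was 776 to 968 in Pfeiffer with BCL6 siRNA, against 527 to 643 in its controls. In OCI-Ly7 this sum overlapped, at 311 to 462 with BCL6 siRNA and 285 to 372 in controls. Summed over the 7 B cell markers, the signal lay between 62355 and 63940 in OCI-Ly7 with BCL6 siRNA, against 52873 to 54836 in OCI-Ly7 controls. The same sum lay between 29802 and 33852 in Pfeiffer with BCL6 siRNA, against 44721 to 45168 in Pfeiffer controls. The sum over 6 germinal centre markers other than BCL6 lay between 17237 and 17809 in OCI-Ly7 with BCL6 siRNA against 19094 to 19724 in its controls, and between 3490 and 3755 in Pfeiffer with BCL6 siRNA against 4591 to 4814 in its controls. The list was mixed in Pfeiffer, where MYBL1 and GCSAM fell and MME rose. The B cell marker signal moved with the siRNA in both lines, in opposite directions, and its part in the changes below was not tested. In these bulk arrays fewer cells of a type and less RNA per cell cannot be told apart.

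Toll-like receptors bind microbial products and pass the signal on through a cytoplasmic TIR domain. TLR1 and TLR6 act at the cell surface and read bacterial lipopeptides, each as a partner of TLR2, whereas TLR7 (single-stranded RNA) and TLR9 (unmethylated CpG DNA) act in endosomes, which they reach with the help of UNC93B1. On ligand binding MYD88 assembles with IRAK4 and then IRAK1, and the complex drives TRAF6, NF-kB and interferon regulatory factors. B cells are among the cells that express TLR7, TLR9 and TLR10, and mutation of MYD88 is a known event in the activated B-cell type of diffuse large B-cell lymphoma.

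Promoter sequences were available from RefSeq (GRCh38.p14) for 6 of the 10 listed genes. Those of MYD88, TLR9 and CD180 are printed because they belong to the 1 member called after BCL6 siRNA and to 2 receptors of unlike pattern, TLR9, higher in Pfeiffer, and CD180, dim there. Each is the 250 bases before the annotated start, 5′ to 3′ on the gene's strand: MYD88 at chr3:38138411-38138660 (plus strand), TLR9 at chr3:52225646-52225895 (minus strand) and CD180 at chr5:67196800-67197049 (minus strand). Capitals mark matches to TTCNNNGAA, the spaced palindrome type read by STAT factors and BCL6, to GAAA repeated after 2 bases of any kind, the interferon response type, and to the octamer ATGCAAAT, read by POU factors.
MYD88: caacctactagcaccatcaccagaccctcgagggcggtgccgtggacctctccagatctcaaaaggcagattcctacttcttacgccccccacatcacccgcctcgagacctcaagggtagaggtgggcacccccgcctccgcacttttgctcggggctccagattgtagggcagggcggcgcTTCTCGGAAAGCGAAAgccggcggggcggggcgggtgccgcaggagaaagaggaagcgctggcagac
TLR9: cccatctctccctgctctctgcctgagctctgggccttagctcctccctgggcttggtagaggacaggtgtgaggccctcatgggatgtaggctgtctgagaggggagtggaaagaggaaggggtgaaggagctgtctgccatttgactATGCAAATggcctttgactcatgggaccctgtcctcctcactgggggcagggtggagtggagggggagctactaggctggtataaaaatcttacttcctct
CD180: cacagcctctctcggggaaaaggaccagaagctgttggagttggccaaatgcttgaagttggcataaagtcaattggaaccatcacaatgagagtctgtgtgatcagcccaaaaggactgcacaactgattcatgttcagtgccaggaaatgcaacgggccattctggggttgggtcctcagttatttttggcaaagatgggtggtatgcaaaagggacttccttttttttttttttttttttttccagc
The MYD88 promoter held TTCTCGGAA 67 bases before the start and, overlapping it, GAAAGCGAAA 61 bases before the start. The narrower form TTCCTNGAA was not in the MYD88 window. The TLR9 promoter held ATGCAAAT 101 bases before its start, and the CD180 window held none of these 4 motifs. Searched on both strands of 35116 promoters of the same length, TTCNNNGAA matched 6.57%, TTCCTNGAA 1.37%, the repeated GAAA 3.02% and ATGCAAAT 1.63%. The looser NF-kB type, GGG and CC with 5 bases of any kind between, matched 54.4% and is not marked. The motifs were picked by name with the sequences at hand, and a match is a description of the letters only.

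The lines differed in which receptors stood above the limit for dim. All probe sets of TLR1, TLR6, TLR7 and CD180, 4 of the 9 genes, were dim in Pfeiffer, and none of the 9 was dim on every probe set in OCI-Ly7. The share of all genes dim in only 1 line was not counted, so this describes the members alone. Median signal per array was 71.3 to 77.6 in Pfeiffer and 77.0 to 85.0 in OCI-Ly7. Among the 8 member probe sets that were bright in both lines, 6 were called between the control groups, 4 higher and 2 lower in Pfeiffer. Over all probe sets tested, 75% were called between the Pfeiffer and OCI-Ly7 controls, 35.7% higher and 39.2% lower in Pfeiffer, so a call between lines was common. The 5 tested member probe sets that were dim in Pfeiffer passed the filter only through OCI-Ly7 and had to be lower in Pfeiffer, so they are not counted as evidence.

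**Figure D1:**
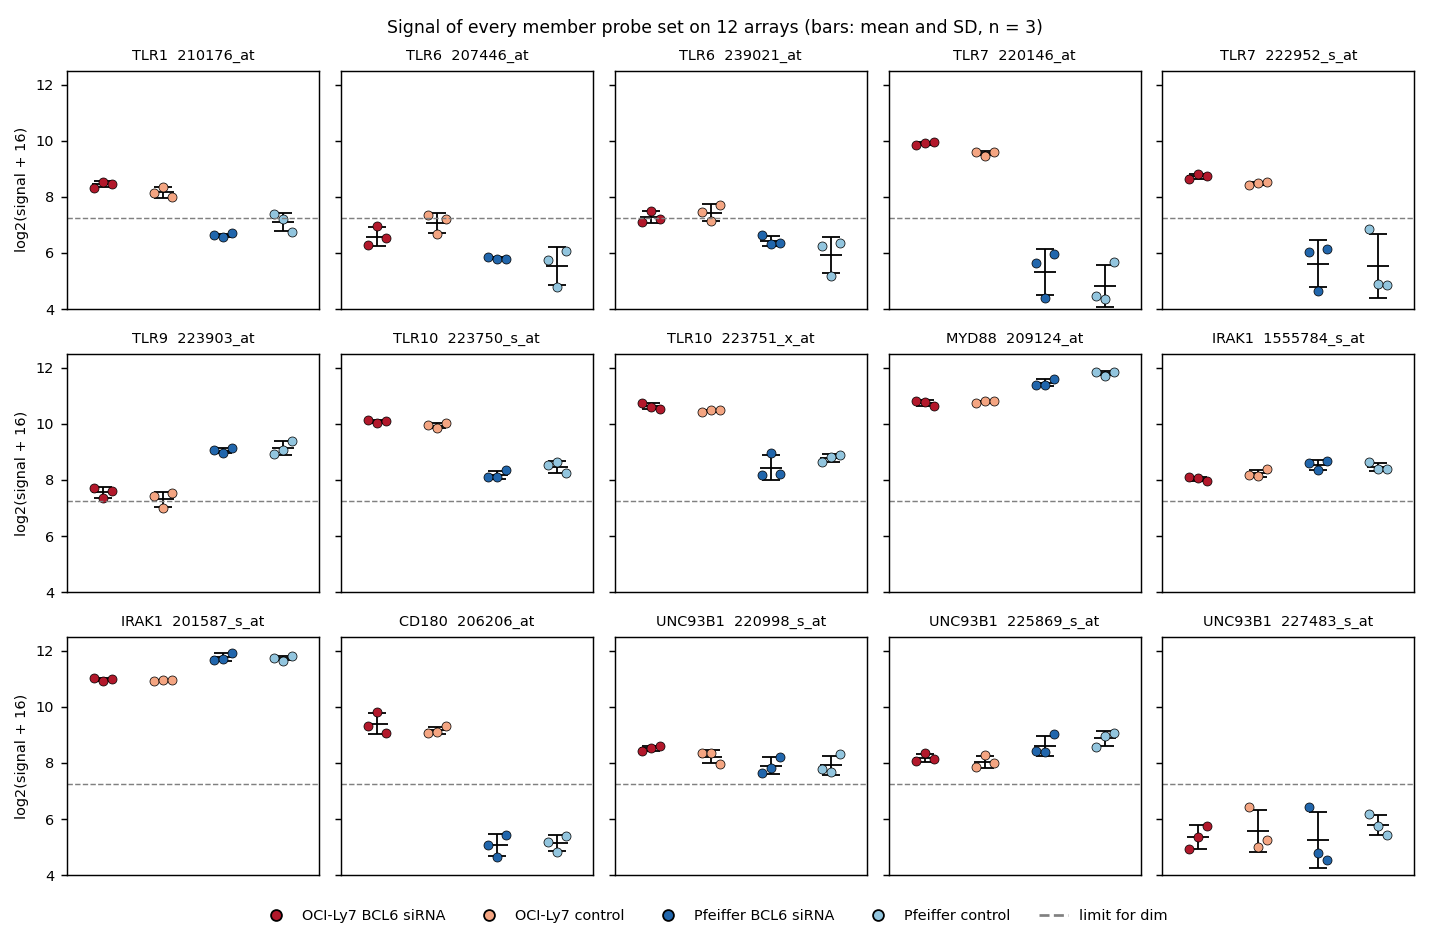
Level of each of the 15 member probe sets on each of the 12 arrays, as log2(signal + 16), 1 point per array, with BCL6 siRNA to the left of its control in each line and bars for the mean and SD (n = 3). The dashed line is the level of 7.24 under which a probe set is called dim. In Pfeiffer the probe sets of TLR1, TLR6, TLR7 and CD180 sit mostly below it, whereas in OCI-Ly7 only TLR6 207446_at and UNC93B1 227483_s_at are dim.

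TLR10, TLR1 and TLR6 lie next to each other between KLF3 and FAM114A1. TLR10 was lower in Pfeiffer, whereas TLR1 and TLR6 were dim there and cannot be compared in the same way. TLR10, a surface receptor of B cells whose ligand is less settled than those of its neighbours, was bright in both lines on both of its probe sets. On 223750_s_at the Pfeiffer controls read 8.53, 8.63 and 8.23, and the OCI-Ly7 controls 9.94, 9.85 and 10.03. The groups did not overlap, and the difference was -1.48 ± 0.12 (SE, n = 3 each, limma adjusted p = 2.15e-08). The second TLR10 probe set, 223751_x_at, gave -1.69 ± 0.16 (adjusted p = 1.43e-07).

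TLR10 was not called after BCL6 siRNA in either line. With BCL6 siRNA 223750_s_at read 10.14, 10.04 and 10.09 in OCI-Ly7, just above every OCI-Ly7 control, a change of 0.15 ± 0.12 (adjusted p = 0.666). In Pfeiffer it read 8.11, 8.09 and 8.35 with BCL6 siRNA, which overlaps the controls, a change of -0.28 ± 0.12 (adjusted p = 0.159). The 223751_x_at probe set read 10.75, 10.60 and 10.54 in OCI-Ly7 with BCL6 siRNA, against 10.41, 10.48 and 10.50 in controls. Both TLR10 probe sets were therefore above their controls on every OCI-Ly7 array, without passing the test (0.17 ± 0.16, adjusted p = 0.748 for 223751_x_at). In Pfeiffer 223751_x_at read 8.18, 8.95 and 8.20 with BCL6 siRNA and 8.62, 8.81 and 8.89 in controls, a change of -0.33 ± 0.16 (adjusted p = 0.217). One array decided this value: without Pfeiffer BCL6 siRNA replicate 2 the change was -0.59 (adjusted p = 0.00282).

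TLR1 (210176_at) was bright in OCI-Ly7 and dim in Pfeiffer. The Pfeiffer controls read 7.38, 7.22 and 6.76, and the OCI-Ly7 controls 8.14, 8.35 and 7.98, so these groups did not overlap. With BCL6 siRNA TLR1 read 6.63, 6.57 and 6.69 in Pfeiffer, below every Pfeiffer control. That change, -0.49 ± 0.19, did not pass the test (adjusted p = 0.127), except without Pfeiffer control replicate 3, when it was -0.67 (adjusted p = 0.0472). In OCI-Ly7 TLR1 read 8.33, 8.55 and 8.48 with BCL6 siRNA, overlapping its controls, a change of 0.29 ± 0.19 (adjusted p = 0.582).

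TLR6 lay near or below the limit for dim on both probe sets. Its probe set 239021_at read 6.25, 5.18 and 6.36 in Pfeiffer controls, against 7.46, 7.14 and 7.72 in OCI-Ly7 controls. With BCL6 siRNA 239021_at read 7.10, 7.51 and 7.22 in OCI-Ly7 and 6.63, 6.31 and 6.34 in Pfeiffer, changes of -0.16 ± 0.31 (adjusted p = 0.893) and 0.50 ± 0.31 (adjusted p = 0.352). The siRNA and control arrays overlapped in both lines. The other TLR6 probe set, 207446_at, was dim in both lines and was not tested. It read 6.28, 6.95 and 6.53 in OCI-Ly7 with BCL6 siRNA, against 7.34, 6.68 and 7.23 in OCI-Ly7 controls. In Pfeiffer 207446_at read 5.87, 5.78 and 5.80 with BCL6 siRNA and 5.75, 4.79 and 6.08 in controls. TLR2, the partner of TLR1 and TLR6, was dim in both lines as well.

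CD180, a surface receptor of B cells that resembles TLR4 outside the cell but lacks the TIR domain, was bright in OCI-Ly7 and dim in Pfeiffer. Its probe set 206206_at read 5.19, 4.82 and 5.39 in Pfeiffer controls, against 9.06, 9.11 and 9.32 in OCI-Ly7 controls. As mean signal this is 19.6 in Pfeiffer controls and 559.0 in OCI-Ly7 controls. The size of the log2 difference, -4.03, depends on the constant added to the signal, being -2.90 with 64 and -4.82 with 1. LY86 encodes MD-1, the secreted partner that CD180 needs at the surface, and was looked up after the CD180 values were seen. LY86 (205859_at) was bright in both lines, with 7.62, 7.42 and 7.83 in Pfeiffer controls and 12.14, 12.21 and 12.31 in OCI-Ly7 controls. LY86 was lower in Pfeiffer, a difference of -4.60 ± 0.15 (adjusted p = 3.86e-13).

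CD180 was not called after BCL6 siRNA in either line. CD180 read 9.30, 9.82 and 9.08 in OCI-Ly7 with BCL6 siRNA, overlapping the controls, a change of 0.24 ± 0.26 (adjusted p = 0.790). In Pfeiffer it read 5.08, 4.66 and 5.44 with BCL6 siRNA, a change of -0.07 ± 0.26 (adjusted p = 0.905) at levels that were dim in both groups. LY86 was not called in either line, at 0.08 ± 0.15 in OCI-Ly7 (adjusted p = 0.895) and -0.09 ± 0.15 in Pfeiffer (adjusted p = 0.769).

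Of the endosomal receptors TLR9 was above the limit for dim in both lines and TLR7 in OCI-Ly7 only. In OCI-Ly7 TLR9 lay near that limit of 7.24, at a mean level of 7.44, with control replicate 2 below it. TLR9 (223903_at) was higher in Pfeiffer, where the controls read 8.92, 9.08 and 9.39, against 7.41, 7.01 and 7.52 in OCI-Ly7 controls. The groups did not overlap and differed by 1.81 ± 0.18 (adjusted p = 1.64e-07). The TLR7 probe set 220146_at read 4.45, 4.34 and 5.68 in Pfeiffer controls, where it was dim, and 9.60, 9.46 and 9.59 in OCI-Ly7 controls. The second TLR7 probe set, 222952_s_at, read 6.86, 4.90 and 4.86 in Pfeiffer controls and 8.43, 8.50 and 8.51 in OCI-Ly7 controls. Both TLR7 probe sets were thus above every Pfeiffer array in OCI-Ly7. The size of the difference depends on the constant added to the signal, being -3.36 with 64 and -6.06 with 1 for 220146_at.

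**Figure D2:**
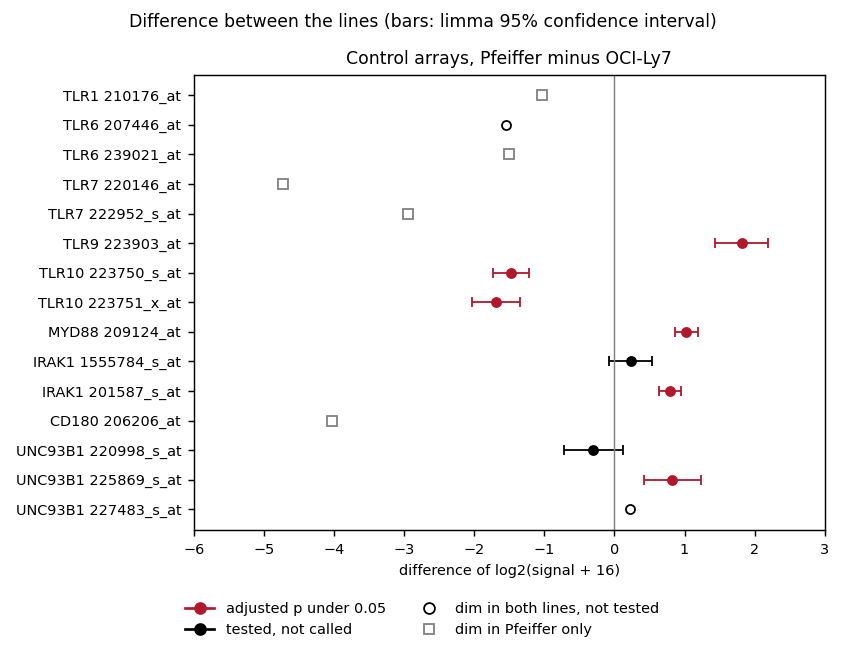
Difference between the control groups, Pfeiffer minus OCI-Ly7, on the log2(signal + 16) scale for each member probe set, with 95% confidence intervals from limma for the 8 bright in both lines, open squares for the 5 dim in Pfeiffer only and open circles for the 2 dim in both. Of the 8, TLR9 is farthest to the high side, at 1.81, and the TLR10 probe sets farthest to the low side, at -1.48 and -1.69.

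After BCL6 siRNA TLR7 read 9.86, 9.91 and 9.96 on 220146_at in OCI-Ly7, above every OCI-Ly7 control. The second probe set, 222952_s_at, read 8.64, 8.81 and 8.75 there, also above every control. The changes were 0.36 ± 0.37 (adjusted p = 0.773) and 0.25 ± 0.46 (adjusted p = 0.890), so neither was called. The standard errors come from a spread shared with Pfeiffer, where TLR7 is dim and the arrays scatter (SD 0.82 with BCL6 siRNA and 0.74 in controls for 220146_at, against 0.05 and 0.08 in OCI-Ly7, n = 3 each). With OCI-Ly7 fitted alone the adjusted p was 0.0588 for 220146_at and 0.372 for 222952_s_at, so the call was not made there either.

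In Pfeiffer TLR7 stayed dim with BCL6 siRNA, at 5.64, 4.40 and 5.95 on 220146_at, a change of 0.51 ± 0.37 (adjusted p = 0.445). The 222952_s_at probe set read 6.05, 4.66 and 6.16, a change of 0.08 ± 0.46 (adjusted p = 0.942). TLR9 read 9.05, 8.94 and 9.15 in Pfeiffer with BCL6 siRNA, within the range of its controls, a change of -0.08 ± 0.18 (adjusted p = 0.835). In OCI-Ly7 TLR9 read 7.73, 7.35 and 7.60 with BCL6 siRNA, a change of 0.24 ± 0.18 (adjusted p = 0.633) with overlapping groups.

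UNC93B1, the chaperone of the endosomal receptors, had 3 probe sets that disagreed between the lines. The 225869_s_at probe set read 8.58, 8.96 and 9.07 in Pfeiffer controls, against 7.85, 8.28 and 8.0 in OCI-Ly7 controls, a difference of 0.83 ± 0.19 (adjusted p = 0.00114). The 220998_s_at probe set gave -0.30 (adjusted p = 0.182), and 227483_s_at was dim in both lines, at 5.45 to 6.18 in Pfeiffer controls and 5.02 to 6.42 in OCI-Ly7 controls. Which of them follows the UNC93B1 transcript was not tested.

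After BCL6 siRNA no UNC93B1 probe set was called. In OCI-Ly7 220998_s_at read 8.41, 8.53 and 8.61 with BCL6 siRNA, above controls of 8.34, 8.37 and 7.97 (0.29, adjusted p = 0.606). In Pfeiffer 220998_s_at read 7.64, 7.83 and 8.22 with BCL6 siRNA and 7.79, 7.68 and 8.31 in controls (-0.03, adjusted p = 0.952). These groups overlapped in Pfeiffer and stood just apart in OCI-Ly7. For 225869_s_at the levels were 8.07, 8.35 and 8.14 in OCI-Ly7 with BCL6 siRNA (0.14, adjusted p = 0.838) and 8.41, 8.39 and 9.02 in Pfeiffer with BCL6 siRNA (-0.26, adjusted p = 0.439). The dim 227483_s_at read 4.92, 5.35 and 5.77 in OCI-Ly7 and 6.42, 4.79 and 4.55 in Pfeiffer with BCL6 siRNA.

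MYD88, the adaptor that most Toll-like receptors share, was the 1 member called after BCL6 siRNA, and it fell in Pfeiffer. Its probe set 209124_at read 11.40, 11.38 and 11.61 in Pfeiffer with BCL6 siRNA, against 11.85, 11.72 and 11.85 in Pfeiffer controls. The groups did not overlap, and the change was -0.34 ± 0.08 (SE, n = 3 each, limma adjusted p = 0.0075), a ratio of 0.789 with a 95% interval of 0.706 to 0.882. The call was kept under all 23 alternative settings, with values of -0.42 to -0.30. In OCI-Ly7 MYD88 read 10.81, 10.79 and 10.63 with BCL6 siRNA and 10.73, 10.80 and 10.81 in controls. These overlapped, with a change of -0.04 ± 0.08 (adjusted p = 0.905, 95% interval -0.20 to 0.12). The difference between the changes in Pfeiffer and OCI-Ly7, -0.31, did not pass the test of the difference (adjusted p = 0.109), so the fall was not shown to be particular to Pfeiffer.

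Between the controls MYD88 was higher in Pfeiffer, by 1.03 ± 0.08 (adjusted p = 5.92e-09). With BCL6 siRNA the Pfeiffer arrays were still above every OCI-Ly7 array. Over the 12 arrays, with each line's mean taken off, the probe sets whose pattern was most like that of MYD88 were those of SPOCK2 (Pearson r = 0.966), FKBP1A (0.959) and BLTP2 (0.955). The points share their arrays and the siRNA contrast, so these values only describe likeness.

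IRAK1, the kinase recruited through IRAK4, was bright in both lines and was not called after BCL6 siRNA. Its probe set 201587_s_at read 11.67, 11.70 and 11.93 in Pfeiffer with BCL6 siRNA, against 11.75, 11.65 and 11.82 in Pfeiffer controls. The change was 0.03 (adjusted p = 0.878), with a 95% interval of -0.13 to 0.18. In OCI-Ly7 201587_s_at lay between 10.92 and 11.02 with BCL6 siRNA and between 10.93 and 10.97 in controls (0.03, adjusted p = 0.903). The other probe set, 1555784_s_at, read 8.11, 8.06 and 7.97 in OCI-Ly7 with BCL6 siRNA, below controls of 8.17, 8.14 and 8.37 (-0.19, adjusted p = 0.662). In Pfeiffer 1555784_s_at read 8.59, 8.35 and 8.67 with BCL6 siRNA and 8.63, 8.38 and 8.38 in controls (0.07, adjusted p = 0.813). Between the control groups 201587_s_at was higher in Pfeiffer by 0.79 ± 0.07 (adjusted p = 7.34e-08), and 1555784_s_at differed by 0.23 ± 0.14 (adjusted p = 0.154).

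Counted over the members, 0 of 13 tested probe sets were called by limma after BCL6 siRNA in OCI-Ly7. Of all probe sets tested 1.61% were called there (0.92% higher and 0.691% lower). An unadjusted limma p under 0.05 was reached by 0 of the 13 and by 2643 of all 20546 tested. In Pfeiffer 1 of 13 was called, MYD88, against 12.4% of all probe sets tested (6.11% higher and 6.33% lower). There an unadjusted limma p under 0.05 was reached by 3 of the 13 and by 5169 of all 20546. The share called among members was near or below the background in both lines. The siRNA arrays stood wholly above the controls for 5 of the 13 in OCI-Ly7 (10.5% of all tested) and wholly below for 1 (10.3%), and 20.8% of all tested stood apart either way. In Pfeiffer 0 stood wholly above (14.5%) and 2, MYD88 and TLR1, wholly below (14.8%), and 29.3% stood apart either way. The 5 in OCI-Ly7 were both TLR7 and both TLR10 probe sets and UNC93B1 220998_s_at, and the probe sets of 1 gene share their target.

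The median change of the 13 was 0.17 in OCI-Ly7, with 10 positive and 3 negative, and -0.07 in Pfeiffer, with 5 positive and 8 negative. Over all probe sets tested the median was -0.00107 in OCI-Ly7 and 0.00457 in Pfeiffer. For the difference between the changes in Pfeiffer and OCI-Ly7, limma called 0 of the 13, against 6.43% of all probe sets tested (2.99% higher and 3.44% lower). An unadjusted limma p under 0.05 for that difference was reached by 4 of the 13 and by 4134 of all 20546. The 95% intervals of the changes that were not called reached from -0.82 to 1.24 in OCI-Ly7 and from -0.91 to 1.30 in Pfeiffer, so changes of those sizes could not be told from 0 for the noisiest probe sets.

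**Figure D3:**
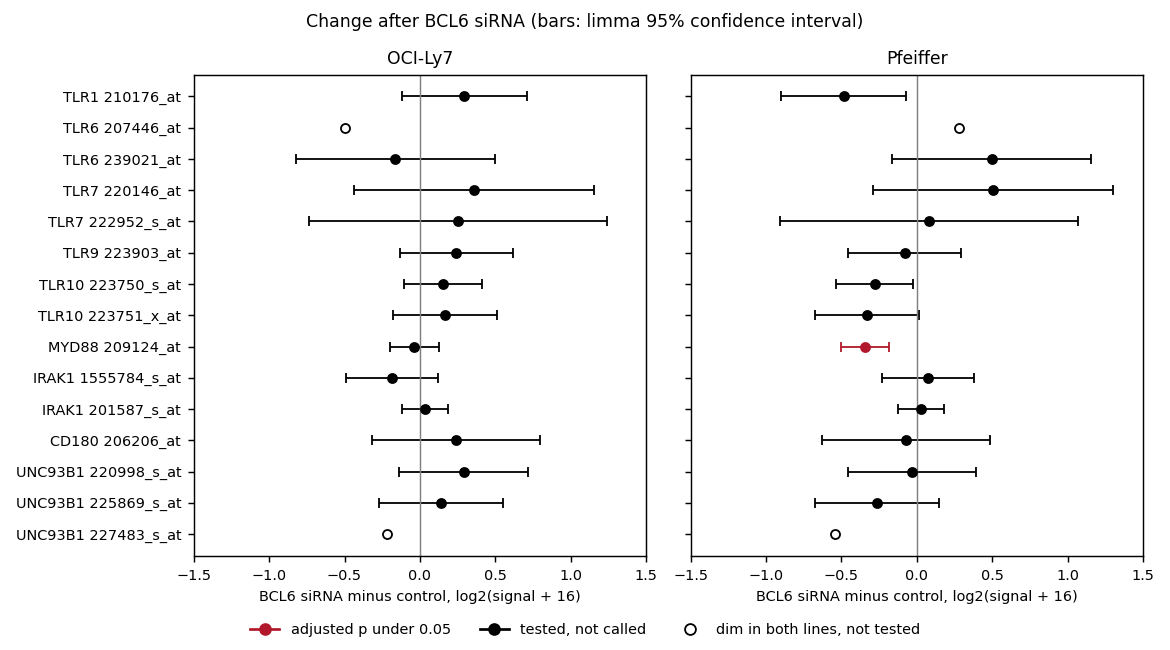
Change after BCL6 siRNA, as siRNA minus control on the log2(signal + 16) scale, for each member probe set in OCI-Ly7 and in Pfeiffer, with 95% confidence intervals from limma for the 13 tested and open circles for the 2 that were dim in both lines. MYD88 in Pfeiffer, at -0.34, is the 1 called change, and the intervals reach from -0.91 to 1.30 at the widest in Pfeiffer.

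The rest of the pathway was read through 5 lists, counting each gene by its brightest tested probe set. Apart from the members, these lists held 50 tested genes. The lists were chosen with earlier results of these data known, so their counts are a description only. In OCI-Ly7 3 rose and 0 fell, against 1.24% and 0.81% of the 10988 genes tested (2.05% in all). Among these 3, TASL (described below) passed the filter only through the BCL6 siRNA arrays. An unadjusted limma p under 0.05 was reached in OCI-Ly7 by 1635 of the 10988 genes. In Pfeiffer 6 rose and 8 fell, against 6.76% and 7.07% (13.8% in all). The median change of the 50 was 0.05 in OCI-Ly7 and -0.04 in Pfeiffer, against 0.0117 and 0.00164 over all genes.

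All 3 calls in OCI-Ly7 lay among the 12 tested genes that fold, move or process the receptors, and all were higher with BCL6 siRNA. HSP90B1, the endoplasmic reticulum chaperone gp96 that folds Toll-like receptors, rose by 1.10 ± 0.07 (adjusted p = 8.39e-07), on a probe set that can also bind related transcripts. TASL, the adaptor that links the lysosomal transporter SLC15A4 to IRF5, rose by 1.35 ± 0.22 (adjusted p = 0.00568). Its mean level over the OCI-Ly7 arrays was 7.85, and the OCI-Ly7 controls alone averaged under the limit of 7.24. TASL thus passed the filter only through the BCL6 siRNA arrays, so its rise is not counted as evidence. AP3B1, a subunit of the AP-3 complex that sorts cargo to lysosome-related organelles, rose by 0.62 ± 0.11 (adjusted p = 0.0075). The probe sets of TASL and AP3B1 can bind related transcripts as well. The AP3B1 call did not hold without a variance trend (adjusted p = 0.0528) or without OCI-Ly7 BCL6 siRNA replicate 1 (adjusted p = 0.0533).

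In Pfeiffer the same list held 1 gene that rose and 4 that fell. HSP90B1 rose by 0.72 ± 0.07 (adjusted p = 5.10e-06). CTSS, the endosomal protease cathepsin S, fell by 0.71 (SE 0.06, adjusted p = 2.90e-06), and SLC15A4, needed for endosomal receptor signalling, fell by 0.67 (SE 0.09, adjusted p = 1.14e-04). The other 2 were LGMN, an asparagine endopeptidase that cleaves TLR9 in the mouse, and the lipid kinase PIKFYVE, both named after their values were seen. LGMN fell by 0.82 (adjusted p = 0.0011) and PIKFYVE by 0.34 (adjusted p = 0.0151), the last a call that did not hold without Pfeiffer control replicate 2 (adjusted p = 0.0664) or with Pfeiffer fitted alone (adjusted p = 0.0597).

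The test of the difference between the lines' changes called 6 of these 12 genes, all with a lower change in Pfeiffer than in OCI-Ly7, against 7.31% of all genes tested (3.14% higher and 4.17% lower). Because the list was chosen with earlier results of these data known, this count cannot show an enrichment. The 6 were TASL (-1.98, adjusted p = 0.00117), LGMN (-1.11, adjusted p = 0.00315), CTSS (-0.80, adjusted p = 5.84e-05), AP3B1 (-0.73, adjusted p = 0.00848), SLC15A4 (-0.57, adjusted p = 0.0118) and HSP90B1 (-0.38, adjusted p = 0.0247). The HSP90B1 call did not hold in 7 of 21 alternatives, among them without OCI-Ly7 control replicate 2 or 3, OCI-Ly7 BCL6 siRNA replicate 3 or Pfeiffer control replicate 2 or 3 (adjusted p up to 0.0985). TASL was dim in Pfeiffer, where its own change was not called (-0.63, adjusted p = 0.0756). It passed the filter only through the OCI-Ly7 BCL6 siRNA arrays, so its part in the count of 6 is not evidence. The median change of the list was 0.19 in OCI-Ly7 and -0.14 in Pfeiffer.

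**Figure D4:**
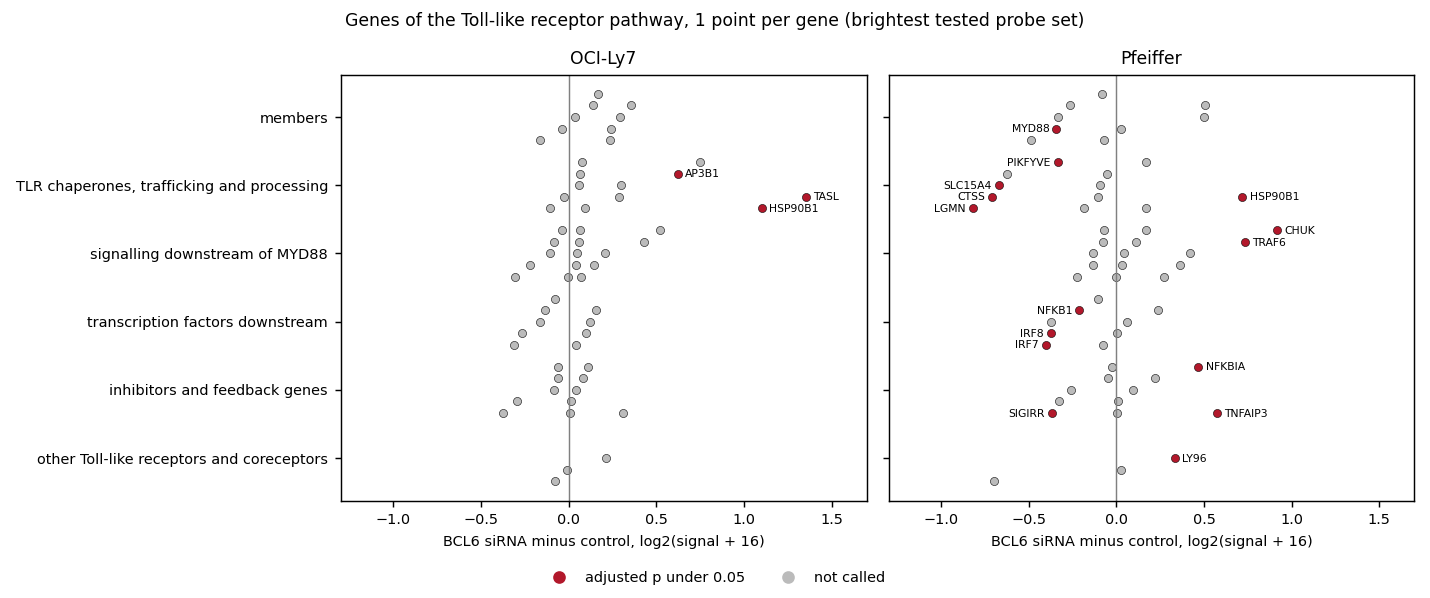
Change after BCL6 siRNA, as siRNA minus control on the log2(signal + 16) scale, for each tested gene of the members and of the 5 pathway lists, 1 point per gene, with genes past an adjusted p of 0.05 in red and named. In OCI-Ly7 the 3 named genes, AP3B1, HSP90B1 and TASL, are all in the chaperone and trafficking list; in Pfeiffer named genes lie on both sides of 0.

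Of the 15 tested genes that carry the signal on from MYD88, 0 were called in OCI-Ly7 by limma (2 at an unadjusted p under 0.05), and 2 rose in Pfeiffer. CHUK, the IKK alpha kinase, rose by 0.91 ± 0.14 (adjusted p = 4.24e-04), more than in OCI-Ly7 by 0.87 (adjusted p = 0.0139). TRAF6, the ubiquitin ligase just below IRAK1, changed by 0.73 ± 0.19 (adjusted p = 0.0202), which did not pass without Pfeiffer control replicate 2 or 3 or Pfeiffer BCL6 siRNA replicate 2 or 3 (adjusted p up to 0.0889).

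Among 9 tested transcription factors of the pathway 3 fell in Pfeiffer and 0 were called in OCI-Ly7 (2 at an unadjusted p under 0.05). IRF8 fell by 0.38 (SE 0.06, adjusted p = 4.41e-04). IRF7, which induces interferon genes below TLR7 and TLR9, fell by 0.40 (adjusted p = 0.0409), and NFKB1, the p50 subunit of NF-kB, by 0.21 (adjusted p = 0.0463). These last calls were near the threshold: IRF7 lost it without any 1 Pfeiffer BCL6 siRNA array, Pfeiffer control replicate 1 or 3, OCI-Ly7 control replicate 2 or OCI-Ly7 BCL6 siRNA replicate 3 (adjusted p up to 0.138). NFKB1 lost it without any 1 array other than Pfeiffer BCL6 siRNA replicate 3 (adjusted p up to 0.168). The difference between the lines' changes was called for IRF8 (-0.30, adjusted p = 0.0396) but in 13 of 22 alternatives it was not (adjusted p up to 0.139), among them without any 1 array other than replicate 2 of OCI-Ly7 BCL6 siRNA, Pfeiffer BCL6 siRNA or Pfeiffer control.

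Of 11 tested inhibitors and feedback genes 2 rose and 1 fell in Pfeiffer, and 0 were called in OCI-Ly7 (3 at an unadjusted p under 0.05). TNFAIP3, which encodes the deubiquitinase A20, rose by 0.57 ± 0.09 (adjusted p = 4.99e-04), and NFKBIA, which holds NF-kB in the cytoplasm, by 0.47 ± 0.10 (adjusted p = 0.00699). SIGIRR, a membrane inhibitor of Toll-like receptor signalling, fell by 0.37 (SE 0.10, adjusted p = 0.0193), a call lost without Pfeiffer control replicate 1 or 3 or Pfeiffer BCL6 siRNA replicate 1 (adjusted p up to 0.0805). The change in Pfeiffer exceeded that in OCI-Ly7 for TNFAIP3 by 0.56 (adjusted p = 0.0135) and for OTULIN, a linear ubiquitin protease named after its values were seen, by 0.51 (adjusted p = 0.0221).

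The other Toll-like receptors and coreceptors were mostly dim: TLR2, TLR3, TLR5, TLR8, CD14 and CD36 were dim in both lines, 6 of 9 with a probe set. TLR4 was dim in Pfeiffer, with a mean level of 5.75, and bright in OCI-Ly7, with 8.11. LY96, which encodes MD-2, the partner of TLR4, was bright in both lines and higher in Pfeiffer controls than in OCI-Ly7 controls by 2.53 ± 0.07 (adjusted p = 8.01e-14). LY96 rose after BCL6 siRNA in Pfeiffer by 0.33 ± 0.07 (adjusted p = 0.00526). In OCI-Ly7 0 of the 3 tested genes of this list were called (1 at an unadjusted p under 0.05). The RNAs of the 2 MD proteins were thus opposite between the lines, LY86 being lower and LY96 higher in Pfeiffer, each on 1 probe set. Protein was not measured.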

How the data were processed

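Total RNA of 12 samples of 2 lymphoma lines was measured on Affymetrix U133 Plus 2.0 arrays. The authors deposited log2 values of 54675 probe sets, made with MAS5 in the affy package per the submitters' processing notes, with versions not given in the sources used here. The 2% trimmed mean of the deposited signal was 500 on every array, so each array was scaled on its own and differences in total RNA are not measured. Median signal was 71.4 to 85.0 per array; precision is limited by there being 3 arrays a group.

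Values were turned back to signal, 16 was added and log2 taken. Of the probe sets, 41091 had 1 symbol and 1801 several in the platform annotation; controls and probe sets with several symbols were left out. The 20546 at or above the median of the higher line mean were tested in R 4.3.3 with limma 3.58.1: 4 group means, eBayes with a trend, 8 residual degrees of freedom, Benjamini-Hochberg over all tested. The fit was checked on 5 simulated data sets. Of added changes of 0.7, 66.8% were called in OCI-Ly7 and 62.8% in Pfeiffer, and of changes of 1, 86% and 85.2%. False calls made up 6.7% of the calls in OCI-Ly7 and 4.09% in Pfeiffer. Levels of different probe sets were used together only for the limit for dim, for picking the brightest probe set of a gene and for the marker sums. For member probe sets 8 of 15 carry IDs ending _s_at or _x_at and can bind related transcripts, among them all those of TLR10, IRAK1 and UNC93B1. Outside the members, so do those used for HSP90B1, TASL, AP3B1, CTSS, CHUK, TNFAIP3, NFKBIA and IRF7, among others.

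Named genes were every member probe set, BCL6, and, per pathway list and line, up to 3 called genes with the lowest p, counted by the brightest tested probe set. For a called member the 3 probe sets of highest correlation were named. The members and lists were chosen with earlier results of these data known. With 3 arrays against 3 an exact permutation test cannot go below 0.1, so only the fit across all probe sets was used. Promoters came from RefSeq and were searched in Python 3.11.15. Alternatives were the pseudocount, scaling, filter, probe set choice, trend, array weights, replicate block, separate lines and each array left out.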

Additional observations from a re-analysis of the deposited data

How the results depend on the processing

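Of 1090 alternative values for the member probe sets, 1054 kept direction and side of the threshold, 28 changed sign without being called in either setting, 8 became called, and no call was lost or reversed. The 8 were TLR1 in Pfeiffer (-0.67) and its difference from OCI-Ly7 (-0.96) without Pfeiffer control replicate 3, TLR10 223751_x_at in Pfeiffer (-0.59) and its difference (-0.76) without Pfeiffer BCL6 siRNA replicate 2, the MYD88 difference with array weights (-0.35) or without Pfeiffer BCL6 siRNA replicate 3 (-0.38), IRAK1 1555784_s_at between controls after quantile normalization (0.41), and UNC93B1 220998_s_at between controls without Pfeiffer control replicate 3 (-0.49). The cause was not tested. Part of the count of 1054 was fixed in advance. The probe sets dim in Pfeiffer only had to be lower there between controls. Leaving out an array of 1 line left the value of the other line's change as it was. The count therefore overstates how stable the values are.

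Called probe sets in OCI-Ly7 (331) were 187 with no filter, 166 without _s_at and _x_at probe sets (fewer tested), 125 without a trend and 508 with array weights, and 121 to 415 with 1 array left out, the lowest without OCI-Ly7 BCL6 siRNA replicate 1. In Pfeiffer 2556 became 1603 with 1 probe set per gene and 1398 without _s_at and _x_at probe sets, and 1736 to 2483 with 1 array left out. The difference between the lines' changes (1321) gave 870, 699 and, without a trend, 862, and 928 to 1454. Between controls 15406 became 7867 and 9852, and 8577 with only the brightest 0.25 of probe sets kept, and 14744 to 15569. Fewer probe sets were tested with 1 probe set per gene, without _s_at and _x_at probe sets, and with only the brightest 0.25 kept. A lower count in those settings is therefore not in itself a lower share called.

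Members called were 0 in OCI-Ly7 throughout and 1 to 2 in Pfeiffer with 1 array left out. Of the difference 0 became 1 with array weights and 0 to 1 with 1 array left out. Between controls 11 of 13 tested were called, of which 5 were dim in Pfeiffer, and 11 to 12 with 1 array left out. The count was 7 without _s_at and _x_at probe sets, which was every member probe set left. These 7 include the TLR6 probe set that was dim in both lines and not tested in the main fit. The count was 5 with only the brightest 0.25 of probe sets kept, where the members tested were not counted. Neither lower count is in itself a loss of calls. With the replicate number as a block OCI-Ly7 gave 182 calls and Pfeiffer 2116. The members called under the block were again 0, 1, 0 and 11, with MYD88 in Pfeiffer at -0.34 (adjusted p = 0.0145). The deviations of arrays of the same number correlated at -0.04 to 0.06 in both lines. Pfeiffer BCL6 siRNA replicates 2 and 3 were most like the control of the same number, and no other replicate was. Values this small from 3 arrays a group cannot show whether equal numbers were handled together. Outside the members, the block also ended the calls of IRF7 and NFKB1 in Pfeiffer and of HSP90B1, IRF8 and TNFAIP3 for the difference (adjusted p 0.0537 to 0.0879).

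Dim probe sets limit what can be said of TLR6, TLR7, TLR1 and CD180 in Pfeiffer, where the added constant shrinks differences and arrays scatter most. No detection calls were used here.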
